A study of Mus musculus with 15 samples.

Results

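The genes described here are 34 listed genes of glycolysis, lactate handling and the hypoxia response, in mouse bone marrow-derived macrophages (BMDMs) stimulated with HMGB1, LPS or LPS/IFNγ. They were chosen as a list by function, with earlier results of these data known. Of the 34 genes, 33 had a row in the count table and all 33 passed the filter on low counts, among 16919 genes that did so. *Ero1l* is not analysed here. The genes fall into 8 roles, which are glucose and lactate transport, hexokinases, upper glycolysis enzymes, enzymes of fructose-2,6-bisphosphate, lower glycolysis enzymes with lactate dehydrogenase, pyruvate dehydrogenase kinases, HIF-1α with its prolyl hydroxylases, and other hypoxia-inducible genes.

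RNA was sequenced from 15 samples, 3 for each of 5 conditions, after 24 h of stimulation. The BMDMs came from wild-type female C57BL/6NTac mice that were 8 to 10 weeks old. All groups were kept in high-glucose medium with 1% serum during stimulation, and no group is labelled as kept at low oxygen. Controls received PBS. The other BMDMs received HMGB1 at 5 µg/mL, either as the fully reduced isoform (frHMGB1) or as the disulfide isoform (dsHMGB1), or LPS at 1 µg/mL, or both LPS and IFNγ (LPS/IFNγ), with the IFNγ at 20 ng/mL. For LPS/IFNγ, the treatment field of the samples gives the LPS as 1 µg/mL and the protocol text as 100 ng/mL, so a difference between LPS/IFNγ and LPS may hold a difference in LPS dose as well as the IFNγ. The HMGB1 isoforms came from different laboratories. frHMGB1 was made in-house with the reducing agent DTT in its buffers, whereas dsHMGB1 was a gift and had no DTT, and a calmodulin-binding protein tag is described for the recombinant HMGB1. Isoform and preparation therefore cannot be told apart. Because cells of 5 mice were mixed ahead of plating, replicates are technical, and every error and adjusted p below covers the spread between cultures and libraries of 1 pool and not the spread between mice.

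Glycolysis takes glucose to pyruvate, which lactate dehydrogenase turns into lactate or the pyruvate dehydrogenase complex sends into the mitochondria. HIF-1 is a transcription factor made of HIF-1α and ARNT. When oxygen is present, prolyl hydroxylases mark HIF-1α for destruction through the VHL ubiquitin ligase, and when oxygen falls, HIF-1 accumulates and raises the transcription of glucose transporters, glycolytic enzymes, pyruvate dehydrogenase kinases and survival genes. Macrophages activated through TLR4, the receptor for LPS, are known to take up more glucose and make more lactate, and HIF-1α is known to accumulate in them without low oxygen. These are background facts, and glucose, lactate and HIF-1α protein were not measured in these samples.

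The libraries held 40934540 to 80925478 counts. In the text, a normalized count is a raw count divided by a size factor derived from TMM normalization, a log2 fold change is unshrunken and given with its standard error (SE), and a gene is called when its adjusted p is under 0.05 in the quasi-likelihood F test that edgeR provides. Summed macrophage markers were between 14000 and 27700 CPM (counts scaled to library size) in every library, and differed by group. They were 22300 to 26600 in PBS, 27400 to 27700 in frHMGB1 and 19500 to 20900 in dsHMGB1. In LPS they were 15800 to 16500 and in LPS/IFNγ 14000 to 14400. The sums of neutrophil, lymphocyte and erythroid markers were at most 0.789, 0.152 and 0.0891. Fibroblast markers summed to 119 to 283 CPM in PBS, 246 to 248 in frHMGB1, 189 to 239 in dsHMGB1, 210 to 218 in LPS and 220 to 223 in LPS/IFNγ. The third PBS library stood apart from the others of its group, with a correlation of log2 CPM of 0.933 and 0.938 to them where all other replicate pairs had 0.987 to 0.993. It is also a control of every comparison with PBS, and 16 of the 33 genes differed there by more than 0.5 on the log2 scale from the mean of the other PBS libraries, from -1.87 for *Pfkfb3* to 1.05 for *Egln2*. Over 13025 protein-coding genes, its log2 ratio to the other PBS libraries had a Spearman rho of -0.52 with exonic length (-0.17 over the 33 genes), and processed pseudogenes took 1.49% of its counts against 0.816% and 0.805%. The genes whose calls change without it are named with each comparison. Another scaling moves all fold changes of a comparison together: without TMM factors, every log2 fold change against PBS shifts by 0.033 for frHMGB1, -0.346 for dsHMGB1, -0.626 for LPS and -0.652 for LPS/IFNγ.

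Compared with PBS, the genes went in both directions under dsHMGB1, LPS and LPS/IFNγ, and almost none was called under frHMGB1. Under dsHMGB1 10 of the 33 genes were higher and 12 lower than in PBS, beside 23.3% and 24.2% of all genes tested. In LPS 13 were higher and 13 lower, beside 26.7% and 36.2%. In LPS/IFNγ 13 were higher and 12 lower, beside 29.0% and 31.2%. Under frHMGB1 0 were higher and 1 was lower, beside 1.31% and 5.69%. Among protein-coding genes alone, which all 33 are, the shares were 25.6% and 27.3% in dsHMGB1, 30.6% and 34.0% in LPS, 31.7% and 35.5% in LPS/IFNγ, and 1.44% and 0.422% in frHMGB1. At an unadjusted p under 0.05 there were 7 genes in frHMGB1. DESeq2 called 1 gene higher and 2 lower in that comparison, beside 502 and 1258 of all 16919 genes tested. The median log2 fold change of the 33 genes was 0.04 for frHMGB1, -0.16 for dsHMGB1, 0.09 for LPS and 0.14 for LPS/IFNγ, where the median of all genes tested was 0.00, -0.11, -0.27 and -0.15. The list thus did not move as one. These comparisons share the PBS libraries, so their values are given side by side and are not independent of each other. As in any bulk sample, fewer cells of a type and less RNA per cell cannot be told apart.

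**Figure D1:**
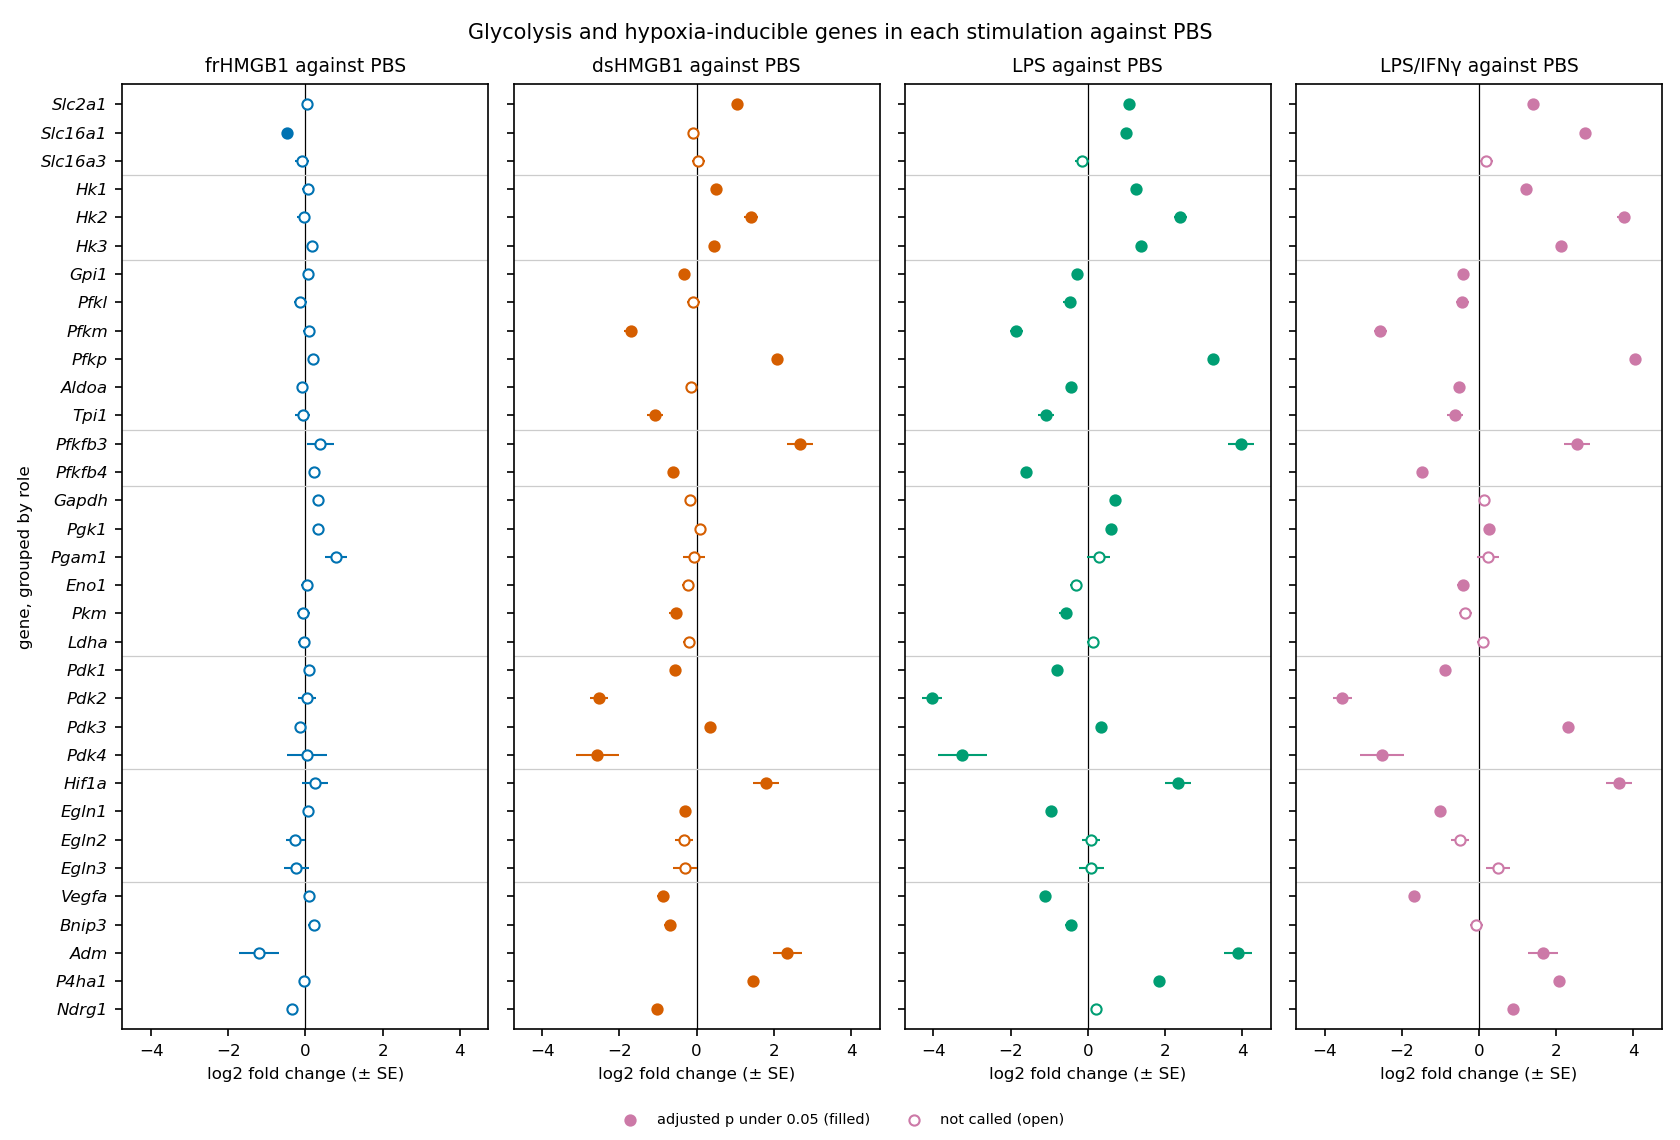
Log2 fold change (x axis, ± SE) of the 33 genes (y axis, grouped by role) in frHMGB1, dsHMGB1, LPS and LPS/IFNγ against PBS, 3 libraries per group, with filled points for an edgeR adjusted p under 0.05. In frHMGB1 the points lie between -1.21 (*Adm*) and 0.80 (*Pgam1*) and 1 is filled, and in the other panels *Hk2*, *Pfkp*, *Pfkfb3*, *Hif1a*, *Adm* and *P4ha1* lie far to the right and *Pfkm*, *Pdk2* and *Pdk4* far to the left.

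Promoter sequence was set beside these calls, because HIF-1 binds a short core that can be read in DNA. The windows are the 250 bases before the RefSeq transcription start (build GRCm38.p6), searched on both strands for the letters ACGTG and GCGTG, where a CACGTG counts on each strand. A window was given for 32 of the 33 genes and not for *Ndrg1*. A match of either motif was present in at least 1 window of 30 of the 32 genes (93.8%), beside 60.2% of 10248 protein-coding genes tested that have a window and 41.5% of all 27025 genes with a window. For ACGTG alone the shares were 65.6% of the 32 genes and 24.5% of the protein-coding genes tested, and for GCGTG alone they were 65.6% and 49.1%. The genes were listed for being glycolytic or hypoxia-inducible, so a high share of this core says nothing about the stimulations. Split by the call in LPS/IFNγ against PBS, a match of either motif was present in 12 of 12 genes that were higher, in 10 of 12 that were lower and in 8 of 8 that were not called. ACGTG alone was present in 75.0%, 41.7% and 87.5% of them. A match is a description of letters and not a site of binding.

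The 6 windows shown are those of 4 genes with large rises in LPS/IFNγ (*Hk2*, *Pfkp*, *Pfkfb3* and *Hif1a*), of *Ldha* and of *Tpi1*. *Ldha* had as many matches as any window of the 33 genes. In the fit of all libraries *Ldha* was not called in any comparison with PBS. *Tpi1* was lower and had no match. Capitals mark the matches. The first start that RefSeq lists is used for each gene, 5′ to 3′ on the strand of the gene, and the positions are chr6:82774455-82774704, minus strand, for *Hk2*, chr13:6648772-6649021, minus strand, for *Pfkp*, chr2:11553930-11554179, minus strand, for *Pfkfb3*, chr12:73907617-73907866, plus strand, for *Hif1a*, chr7:46845554-46845803, plus strand, for *Ldha*, and chr6:124814159-124814408, minus strand, for *Tpi1*.
Hk2: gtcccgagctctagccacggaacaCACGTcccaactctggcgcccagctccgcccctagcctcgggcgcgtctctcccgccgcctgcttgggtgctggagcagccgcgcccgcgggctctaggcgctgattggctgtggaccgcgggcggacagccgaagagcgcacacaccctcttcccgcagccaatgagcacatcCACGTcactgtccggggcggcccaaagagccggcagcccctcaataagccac
Pfkp: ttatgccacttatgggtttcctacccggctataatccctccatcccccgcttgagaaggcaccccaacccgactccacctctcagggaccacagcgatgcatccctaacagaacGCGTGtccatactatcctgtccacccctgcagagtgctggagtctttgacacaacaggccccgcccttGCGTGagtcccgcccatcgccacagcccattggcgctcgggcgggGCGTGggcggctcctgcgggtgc
Pfkfb3: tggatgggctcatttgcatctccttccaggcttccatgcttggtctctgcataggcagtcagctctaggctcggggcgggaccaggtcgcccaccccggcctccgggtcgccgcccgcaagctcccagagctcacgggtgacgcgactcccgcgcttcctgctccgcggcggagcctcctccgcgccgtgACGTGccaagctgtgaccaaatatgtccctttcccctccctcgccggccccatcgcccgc
Hif1a: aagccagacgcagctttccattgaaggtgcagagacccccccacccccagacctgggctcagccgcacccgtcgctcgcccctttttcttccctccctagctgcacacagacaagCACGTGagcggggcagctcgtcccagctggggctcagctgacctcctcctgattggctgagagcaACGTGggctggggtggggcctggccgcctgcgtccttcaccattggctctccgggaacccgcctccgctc
Ldha: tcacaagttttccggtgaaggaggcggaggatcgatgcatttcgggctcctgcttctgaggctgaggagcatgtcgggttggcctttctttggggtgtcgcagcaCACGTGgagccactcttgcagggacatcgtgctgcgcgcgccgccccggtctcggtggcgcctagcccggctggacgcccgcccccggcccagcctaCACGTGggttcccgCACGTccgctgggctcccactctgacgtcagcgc
Tpi1: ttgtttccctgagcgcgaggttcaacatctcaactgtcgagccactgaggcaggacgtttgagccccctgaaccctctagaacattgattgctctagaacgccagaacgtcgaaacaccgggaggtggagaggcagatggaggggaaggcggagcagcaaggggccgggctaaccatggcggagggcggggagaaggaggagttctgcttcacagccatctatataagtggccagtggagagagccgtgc
The *Hk2* window holds 2 matches, that of *Pfkp* 3, that of *Pfkfb3* 1, that of *Hif1a* 3 and that of *Ldha* 5. The 4 genes shown with large rises thus had between 1 and 3 matches in these windows. *Ldha* is shown as a gene with as many matches as any window, so its larger count follows from that choice. The counts of *Ldha* and *Hif1a* include CACGTG, which counts on each strand. Other windows and other genes that rose had other counts. The second *Pfkfb3* window had 3 matches, and *Slc16a1* and *Pdk3*, which were also higher in LPS/IFNγ and are not shown, had 4 each.

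The glucose transporter GLUT1 is the product of *Slc2a1* (ENSMUSG00000028645, chr4:119108711-119137983, plus strand). *Slc2a1* had normalized counts of 2642, 2604 and 3197 in PBS, 2714, 3123 and 2803 in frHMGB1, 6096, 5715 and 5467 in dsHMGB1, 5840.2, 5875 and 6004 in LPS and 7397, 7284 and 7472 in LPS/IFNγ. All libraries of dsHMGB1, LPS and LPS/IFNγ lay above all libraries of PBS and frHMGB1, which overlapped. The log2 fold change against PBS was 1.04 ± 0.09 in dsHMGB1 (edgeR adjusted p = 1.08e-06), 1.07 ± 0.09 in LPS (4.69e-07) and 1.39 ± 0.09 in LPS/IFNγ (3.15e-08). Between dsHMGB1 and LPS it was -0.04 ± 0.09, with a 95% interval of -0.22 to 0.15, and was not called. With TMM factors any difference there was thus small beside the rise over PBS. Without TMM factors this difference was 0.24 and was called higher in dsHMGB1. The log2 fold changes against PBS then shift by -0.346 in dsHMGB1 and -0.626 in LPS, and both rises remained called.

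Lactate leaves or enters cells through monocarboxylate transporters, of which *Slc16a1* encodes MCT1 and *Slc16a3* encodes MCT4, the form best known for lactate export. *Slc16a1* (ENSMUSG00000032902, chr3:104638668-104658462, plus strand) had normalized counts of 647, 691 and 598 in PBS, 504, 431 and 456 in frHMGB1, 704, 592 and 524 in dsHMGB1, 1363, 1288 and 1239.7 in LPS and 4301, 4355 and 4294 in LPS/IFNγ. The LPS/IFNγ libraries were the highest by far, the LPS libraries came next, and dsHMGB1 overlapped PBS. *Slc16a1* rose by 1.00 ± 0.11 on the log2 scale in LPS (edgeR adjusted p = 4.82e-06) and by 2.74 ± 0.11 in LPS/IFNγ (2.65e-10), and its change in dsHMGB1 was -0.09 ± 0.12 (0.532). It was also the only 1 of the 33 genes called in frHMGB1, where it fell, with a log2 fold change of -0.48 ± 0.12 (edgeR adjusted p = 0.0205) and no overlap between the libraries. That call was lost without TMM factors (-0.46, edgeR adjusted p = 0.0629) and with both groups fitted alone (-0.51, 0.192). *Slc16a3* was not called in any of the 8 comparisons and had group means between 1398 and 1789. Its PBS libraries were 1334, 1270.2 and 2098, and without the third of them it was called higher in dsHMGB1 (0.32, edgeR adjusted p = 0.00371) and in LPS/IFNγ (0.45, 0.000156).

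Hexokinases trap glucose in the cell as glucose-6-phosphate. All 3 hexokinase genes rose in each of dsHMGB1, LPS and LPS/IFNγ. *Hk2* (ENSMUSG00000000628, chr6:82725025-82774454, minus strand), the form most often tied to HIF-1, had normalized counts of 2745, 2668 and 1649.9 in PBS, 2424, 2239 and 2144 in frHMGB1, 6368, 6614 and 5805 in dsHMGB1, 11444, 12858 and 13066 in LPS and 31228, 32861 and 31259 in LPS/IFNγ. The groups formed steps without overlap from PBS and frHMGB1 to dsHMGB1, LPS and LPS/IFNγ. Its log2 fold change against PBS was 1.41 ± 0.17 in dsHMGB1 (edgeR adjusted p = 5.94e-06), 2.40 ± 0.17 in LPS (2.22e-08) and 3.75 ± 0.17 in LPS/IFNγ (3.82e-10). *Hk3* (ENSMUSG00000025877, chr13:55005985-55021385, minus strand), the hexokinase of myeloid cells, counted 26542, 26175 and 24641 in PBS, 29003, 28837 and 28974 in frHMGB1, 38382, 33131 and 34836 in dsHMGB1, 65815, 69728 and 66258 in LPS and 111080.0, 111052 and 113878 in LPS/IFNγ. The steps were in the same order and smaller, with log2 fold changes of 0.46 ± 0.06, 1.38 ± 0.06 and 2.12 ± 0.06 in dsHMGB1, LPS and LPS/IFNγ (edgeR adjusted p = 0.000247, 3.51e-09 and 5.61e-11). *Hk1*, the housekeeping hexokinase, rose by 0.51 ± 0.14, 1.26 ± 0.14 and 1.22 ± 0.14 (edgeR adjusted p = 0.00544, 1.82e-06 and 2.38e-06). In CPM per kilobase of exon, the PBS level was 120 for *Hk3*, 8.46 for *Hk1* and 6.79 for *Hk2*. In LPS/IFNγ those levels were 523, 19.7 and 91.6, so *Hk2* passed *Hk1* while *Hk3* remained the highest of the 3. The rises of *Hk1* and *Hk3* in dsHMGB1 are of the size of the scaling shift, and without TMM factors neither was called there (0.14 and 0.11, edgeR adjusted p = 0.483 and 0.37).

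Phosphofructokinase commits sugar to glycolysis and is made of muscle (*Pfkm*), liver (*Pfkl*) and platelet (*Pfkp*) subunits. The 3 subunit genes went different ways. *Pfkp* (ENSMUSG00000021196, chr13:6579768-6648777, minus strand) had normalized counts of 4103, 4230.1 and 2955 in PBS, 4336, 4272 and 4298 in frHMGB1, 15129, 15912 and 16363 in dsHMGB1, 34146, 36842 and 36255 in LPS and 61063, 61562 and 61640.3 in LPS/IFNγ. It rose by 2.07 ± 0.12 on the log2 scale in dsHMGB1 (edgeR adjusted p = 6.87e-09), 3.25 ± 0.12 in LPS (6.86e-11) and 4.03 ± 0.12 in LPS/IFNγ (1.15e-11), the largest rise of the 33 genes in LPS/IFNγ. *Pfkm* (ENSMUSG00000033065, chr15:98092589-98132451, plus strand) went the other way, with 565, 537 and 642 in PBS, 542, 716 and 592 in frHMGB1, 183, 168 and 180.0 in dsHMGB1, 136, 152 and 196 in LPS and 87.6, 103 and 105 in LPS/IFNγ. Every library of dsHMGB1, LPS and LPS/IFNγ lay below every library of PBS and frHMGB1, and the log2 fold changes were -1.71 ± 0.16, -1.85 ± 0.17 and -2.56 ± 0.17 (edgeR adjusted p = 1.03e-06, 3.45e-07 and 1.5e-08). *Pfkl* had group means of 1536 to 2125 and was called lower in LPS (-0.47 ± 0.17, edgeR adjusted p = 0.0208) and LPS/IFNγ (-0.43 ± 0.17, 0.0319). Both *Pfkl* calls ended without the third PBS library (-0.18 and -0.19, edgeR adjusted p = 0.0893 and 0.0724). As levels per kilobase the subunits stood in PBS at 5.48 for *Pfkl*, 4.83 for *Pfkp* and 2.99 for *Pfkm*, and in LPS/IFNγ at 4.06, 78.8 and 0.507. Exons of *Pfkp* overlap those of *Pitrm1* on the other strand over 748 bases and exons of *Pfkm* overlap those of *Senp1* over 18, and whether counting used the strand is not given in the sources used here.

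Between the first phosphorylations and the triose stage, 3 more enzymes were measured. *Gpi1* encodes glucose-6-phosphate isomerase, *Aldoa* aldolase A and *Tpi1* triosephosphate isomerase, and each was called lower in LPS and LPS/IFNγ in the fit of all libraries. *Tpi1* had normalized counts of 10335, 10347 and 18705 in PBS, 12206, 12709.6 and 12687 in frHMGB1, 6836, 5505 and 6272 in dsHMGB1, 6481, 6099 and 6076 in LPS and 8958, 8156 and 8550.1 in LPS/IFNγ. The third PBS library was far above the other PBS libraries, and all PBS libraries lay above all libraries of dsHMGB1, LPS and LPS/IFNγ. The log2 fold changes of *Tpi1* were -1.08 ± 0.20, -1.08 ± 0.20 and -0.62 ± 0.20 (edgeR adjusted p = 0.000319, 0.000212 and 0.0106), and without that library they were -0.73, -0.69 and -0.28 and all called. *Gpi1* fell in dsHMGB1, LPS and LPS/IFNγ by smaller amounts, with log2 fold changes of -0.33 ± 0.09, -0.27 ± 0.09 and -0.42 ± 0.09 (edgeR adjusted p = 0.00844, 0.018 and 0.00132). *Aldoa* was called lower in LPS (-0.44 ± 0.13, edgeR adjusted p = 0.00573) and LPS/IFNγ (-0.53 ± 0.13, 0.00177) and was -0.15 ± 0.13 in dsHMGB1 (0.309). Without the third PBS library the values were -0.21, -0.12 and -0.32 for *Gpi1* and, in LPS and LPS/IFNγ, -0.21 and -0.35 for *Aldoa*, all still called. With a group and PBS fitted alone, *Gpi1* and *Aldoa* lost all of these calls and *Tpi1* that in LPS/IFNγ, and RLE normalization ended the call of *Gpi1* in LPS. The row used for *Aldoa* (ENSMUSG00000114515, chr7:126800790-126809108, minus strand) belongs in GENCODE M21 to a short model that starts upstream of the main one, so which transcripts its counts cover is uncertain and no level per kilobase is given.

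The level of fructose-2,6-bisphosphate, the strongest activator of phosphofructokinase, is set by enzymes of the PFKFB family. Of these, *Pfkfb3* is known for strong synthesis of the activator. *Pfkfb3* (ENSMUSG00000026773, chr2:11471433-11554077, minus strand) had normalized counts of 1857, 1901 and 513 in PBS, 1973, 1805 and 1840.2 in frHMGB1, 8289, 9480.1 and 9394 in dsHMGB1, 20972, 22679 and 23542 in LPS and 8081, 8331 and 8262 in LPS/IFNγ. LPS was the highest group, dsHMGB1 and LPS/IFNγ lay close together below it, and the third PBS library was far below the other PBS libraries. Its log2 fold change against PBS was 2.67 ± 0.34 in dsHMGB1 (edgeR adjusted p = 2.45e-05), 3.97 ± 0.34 in LPS (5.16e-07) and 2.53 ± 0.34 in LPS/IFNγ (2.2e-05), and without that library 2.28, 3.61 and 2.12. *Pfkfb4* (ENSMUSG00000025648, chr9:108991778-109032228, plus strand) had 2650.3, 2461 and 1811 in PBS, 2758, 2639.6 and 2729 in frHMGB1, 1389, 1569 and 1581 in dsHMGB1, 755, 789 and 738 in LPS and 839, 813 and 817 in LPS/IFNγ. It fell in all of the last 3 groups, with log2 fold changes of -0.61 ± 0.13, -1.60 ± 0.13 and -1.49 ± 0.13 (edgeR adjusted p = 0.00112, 1.18e-07 and 2.18e-07). Both genes are classical hypoxia-inducible genes, and they went in opposite directions here.

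**Figure D2:**
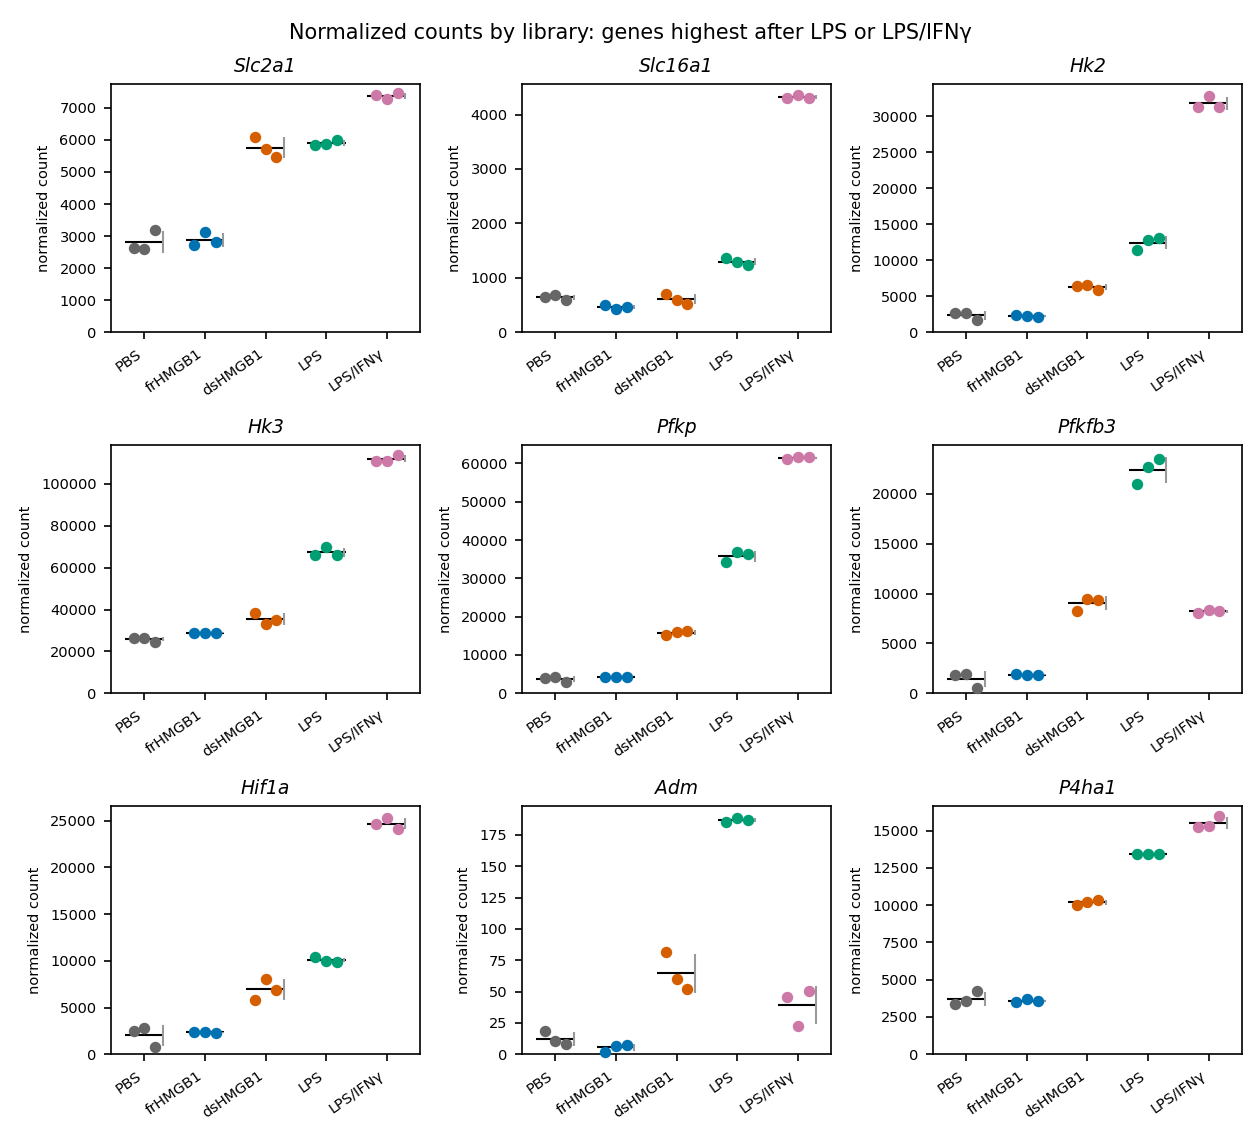
Normalized counts (y axis, linear from 0) by condition (x axis) for 9 genes of transport, glycolysis and the hypoxia response; points are the 3 libraries of a condition, black lines their mean and grey bars the SD. PBS and frHMGB1 lie lowest in the panels of *Slc2a1*, *Hk2*, *Hk3*, *Pfkp*, *Pfkfb3*, *Hif1a*, *Adm* and *P4ha1*, LPS/IFNγ is highest in 7 of the 9 panels and LPS in those of *Pfkfb3* and *Adm*.

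The lower glycolysis enzymes moved least. They run from glyceraldehyde-3-phosphate dehydrogenase (*Gapdh*) through phosphoglycerate kinase (*Pgk1*), phosphoglycerate mutase (*Pgam1*), enolase (*Eno1*) and pyruvate kinase (*Pkm*) to lactate dehydrogenase A (*Ldha*). Of these 6 genes, 0 were higher and 1 was lower in dsHMGB1, 2 were higher and 1 lower in LPS, and 1 was higher and 1 lower in LPS/IFNγ. *Ldha* was called in none of the 8 comparisons, and its log2 fold change against PBS was -0.20 ± 0.16 in dsHMGB1, with a 95% interval of -0.51 to 0.12, 0.14 ± 0.16 in LPS, with -0.18 to 0.45, and 0.10 ± 0.16 in LPS/IFNγ, with -0.22 to 0.41. Its PBS libraries were 20530.2, 20132 and 31331, and without the third of them *Ldha* was called higher in LPS (0.42, edgeR adjusted p = 9.55e-05) and LPS/IFNγ (0.33, 0.000927). In levels per kilobase, which carry the TMM factors, *Ldha* stood at 125 in PBS and 134 in LPS/IFNγ and *Pkm* at 224 and 175. *Slc2a1* rose from 13.8 to 36.2 on that scale. Without TMM factors, *Ldha* was called lower in dsHMGB1, LPS and LPS/IFNγ against PBS. *Pkm*, whose transcripts of both splice forms are counted together here, was lower in dsHMGB1 (-0.54 ± 0.17, edgeR adjusted p = 0.0103) and LPS (-0.57 ± 0.17, 0.00555). *Eno1* was lower in LPS/IFNγ (-0.41 ± 0.15, edgeR adjusted p = 0.0243). Without the third PBS library these were -0.26, -0.25 and -0.17, still called, and all of these calls were lost with a group and PBS fitted alone. *Pgk1* was higher in LPS (0.60 ± 0.10, edgeR adjusted p = 0.000208) and LPS/IFNγ (0.26 ± 0.10, 0.0391), and both depended on the scaling. Without TMM factors *Pgk1* was -0.02 in LPS (edgeR adjusted p = 0.842) and was called lower in LPS/IFNγ (-0.38, 0.00159), and without the third PBS library it was called higher in dsHMGB1 (0.23, 0.00382).

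*Pgam1* (ENSMUSG00000011752, chr19:41911923-41918660, plus strand) had normalized counts of 4428, 4467 and 1567 in PBS, 6129.5, 6253 and 5892 in frHMGB1, 3289.8, 3199 and 3461 in dsHMGB1, 3955, 4178 and 4552 in LPS and 4174, 4109 and 4111 in LPS/IFNγ. The third PBS library was the lowest of all 15 and the frHMGB1 libraries were the highest. *Pgam1* was not called in any comparison with PBS, and without that library it was lower in dsHMGB1 (-0.41, edgeR adjusted p = 1.86e-05) and higher in frHMGB1 (0.47, 5.29e-05).

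*Gapdh* (ENSMUSG00000057666, chr6:125161715-125166467, minus strand), the reference gene of the study's qPCR, had normalized counts of 2102, 2233 and 2709 in PBS, 2506, 3189.6 and 3158 in frHMGB1, 1926, 2027 and 2365 in dsHMGB1, 3935, 4221 and 3389 in LPS and 2654, 2574 and 2522 in LPS/IFNγ. It was called higher in LPS (0.71 ± 0.14, edgeR adjusted p = 0.000413), and was -0.16 ± 0.14 in dsHMGB1 (0.351) and 0.14 ± 0.14 in LPS/IFNγ (0.384). Its counts have a limit of their own. The mouse genome holds 186 processed pseudogenes in the annotation that are copies of *Gapdh*, and the share of the joint counts that was assigned to those copies was 70.9% in PBS, 63.7% in dsHMGB1 and 71.4% in LPS/IFNγ, against 23.3% in frHMGB1 and 15.4% in LPS. With the copies added to the gene, the log2 fold change turned to -0.80 in LPS (edgeR adjusted p = 5.66e-05) and to -1.07 in frHMGB1 (9.63e-05), and was -0.47 in dsHMGB1 (0.00506) and 0.14 in LPS/IFNγ (0.325). No direction can therefore be given for *Gapdh* from these counts.

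**Figure D3:**
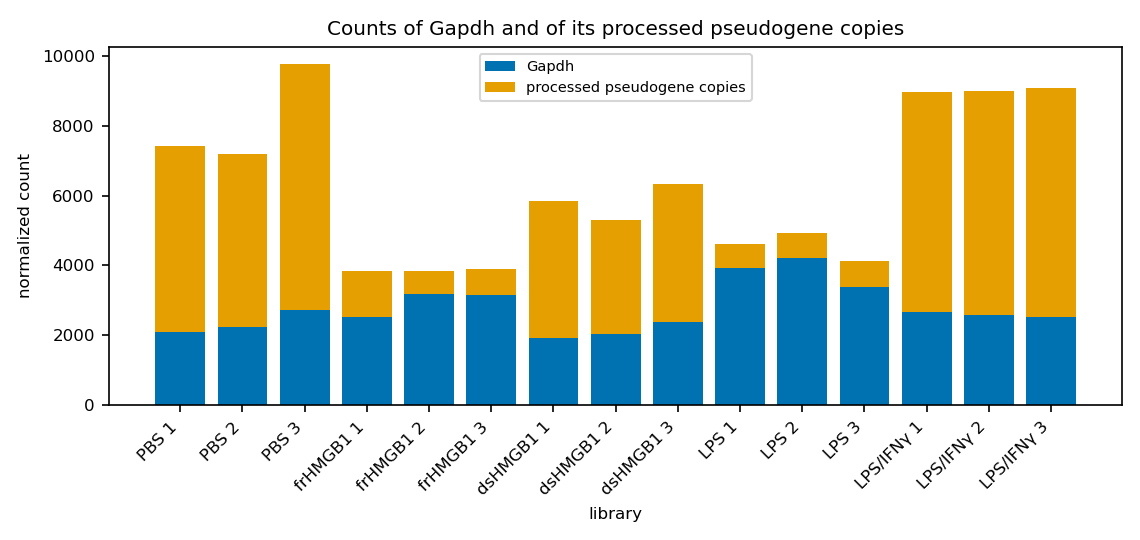
Normalized counts (y axis) of *Gapdh* (blue) and of its processed pseudogene copies together (orange, stacked on top) in each of the 15 libraries (x axis). The orange part is small in all libraries of frHMGB1 and LPS and is the larger part in all libraries of PBS, dsHMGB1 and LPS/IFNγ.

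The same split of the libraries showed in the other genes with copies except *Bnip3*, whose copies had 16 counts over all libraries. Its share was 0.097% in PBS, 0.355% in frHMGB1 and 1.59% in LPS/IFNγ. The share of counts in copies for *Pkm* was 6.11% in PBS, 7.16% in dsHMGB1 and 7.11% in LPS/IFNγ, against 1.25% in frHMGB1 and 1.29% in LPS. In the same order it was 3.24%, 3.26% and 3.48%, against 0.202% and 0.272%, for *Gpi1*. For *Ldha*, *Pgam1*, *Tpi1* and *Pgk1* it was 0.097% to 4.40% and likewise lowest in frHMGB1 and LPS. Over all processed pseudogenes, the share of a library's counts was 0.54% to 0.56% in frHMGB1, 0.481% to 0.487% in LPS and 0.684% to 1.49% in the other groups. Its part in the differences of these genes that involve frHMGB1 or LPS was not tested beyond adding the copies to the gene, which turned calls for *Gapdh* and for no other of the 33 genes, and ended the call of *Pgk1* in LPS/IFNγ against PBS and that of *Slc2a1* in LPS/IFNγ against LPS.

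Pyruvate dehydrogenase kinases switch off the pyruvate dehydrogenase complex and so keep pyruvate in the cytosol. Of the 4 kinase genes, 3 fell and 1 rose in each of dsHMGB1, LPS and LPS/IFNγ. *Pdk2* (ENSMUSG00000038967, chr11:95026258-95041354, minus strand) had normalized counts of 1172, 1118 and 891 in PBS, 1194, 1020.5 and 1087 in frHMGB1, 164, 177 and 208 in dsHMGB1, 41.8, 96.3 and 55.7 in LPS and 71.7, 82.6 and 118 in LPS/IFNγ. Its log2 fold change of -4.05 ± 0.26 in LPS (edgeR adjusted p = 2.74e-08) was the largest fall of the 33 genes there, and it was -2.53 ± 0.24 in dsHMGB1 (1.9e-06) and -3.54 ± 0.25 in LPS/IFNγ (6.34e-08). *Pdk4* (ENSMUSG00000019577, chr6:5483351-5496309, minus strand), the kinase known to rise in fasting, was low throughout, with 55.3, 86.3 and 40.9 in PBS, 47.2, 55.1 and 84.4 in frHMGB1, 13.5, 8.21 and 9.34 in dsHMGB1, 7.6, 11.7 and 0 in LPS and 19, 3.18 and 10.1 in LPS/IFNγ. These rest on 14 raw counts over the LPS group and 249 over the PBS group, and the log2 fold changes were -2.57 ± 0.56, -3.25 ± 0.64 and -2.51 ± 0.57 (edgeR adjusted p = 0.00388, 0.00116 and 0.00347). *Pdk1*, the kinase most often named as a HIF-1 target, fell by smaller amounts, with log2 fold changes of -0.57 ± 0.10, -0.81 ± 0.10 and -0.87 ± 0.10 (edgeR adjusted p = 0.000468, 1.32e-05 and 6.49e-06). *Pdk3* was the kinase that rose. Its normalized counts were 530.2, 545 and 426 in PBS and 2480.4, 2257 and 2747 in LPS/IFNγ, a log2 fold change of 2.31 ± 0.12 (edgeR adjusted p = 2.42e-09), beside 0.35 ± 0.13 in dsHMGB1 (0.0283) and 0.35 ± 0.13 in LPS (0.0236), neither of which was called without TMM factors. In levels per kilobase, *Pdk2* was the highest of the 4 kinases in PBS at 5.77, and *Pdk3* in LPS/IFNγ at 16.8.

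*Hif1a* encodes the oxygen-regulated subunit of HIF-1. *Hif1a* (ENSMUSG00000021109, chr12:73901375-73947530, plus strand) had normalized counts of 2505, 2783 and 735 in PBS, 2382, 2424 and 2304 in frHMGB1, 5781, 8091 and 6922 in dsHMGB1, 10350.3, 10012 and 9902 in LPS and 24576, 25273 and 24109.8 in LPS/IFNγ. The groups rose in steps without overlap from PBS and frHMGB1 to dsHMGB1, LPS and LPS/IFNγ, the order also seen for *Hk2*. The log2 fold change against PBS was 1.79 ± 0.34 in dsHMGB1 (edgeR adjusted p = 0.000654), 2.33 ± 0.34 in LPS (5.23e-05) and 3.62 ± 0.34 in LPS/IFNγ (1.21e-06). The third PBS library again lay far below the other PBS libraries, and without it the values were 1.40, 1.97 and 3.21 and all remained called.

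The prolyl hydroxylase genes *Egln1* (PHD2), *Egln2* (PHD1) and *Egln3* (PHD3) differed in their calls, with *Egln1* lower and the others not called. *Egln1* (ENSMUSG00000031987, chr8:124908587-124949324, minus strand), the main hydroxylase of HIF-1α, had normalized counts of 2357, 2500.3 and 2178 in PBS, 2505, 2482 and 2358 in frHMGB1, 1950.2, 1879 and 1952 in dsHMGB1, 1183, 1165 and 1297 in LPS and 1168, 1097 and 1198 in LPS/IFNγ. It fell by little in dsHMGB1, with a log2 fold change of -0.29 ± 0.07 (edgeR adjusted p = 0.0163), and by more in LPS (-0.95 ± 0.08, 6.22e-07) and LPS/IFNγ (-1.02 ± 0.08, 2.7e-07). *Egln1* and *Egln3* are themselves known as hypoxia-inducible, and neither rose in the fit with all libraries. *Egln3* had 34.0 to 72.7 normalized counts per library, log2 fold changes of -0.29 ± 0.31, 0.09 ± 0.32 and 0.50 ± 0.31 in dsHMGB1, LPS and LPS/IFNγ and no call, and without the third PBS library it was called higher in LPS/IFNγ (0.87, edgeR adjusted p = 0.0103). *Egln2* was not called either. Its PBS libraries were 3045, 2982 and 6242, and without the third of them it was higher in LPS (0.56, edgeR adjusted p = 9.63e-06).

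Among the other hypoxia-inducible genes, *Adm* and *P4ha1* rose in dsHMGB1, LPS and LPS/IFNγ, *Vegfa* fell in all of these, and *Bnip3* and *Ndrg1* differed between them. *P4ha1* (ENSMUSG00000019916, chr10:59323296-59373304, plus strand), a collagen prolyl hydroxylase subunit, had normalized counts of 3364, 3564 and 4259 in PBS, 3535, 3674 and 3587 in frHMGB1, 9994, 10225 and 10321 in dsHMGB1, 13419, 13460.0 and 13443 in LPS and 15256, 15292 and 15978 in LPS/IFNγ. Its log2 fold changes were 1.45 ± 0.08, 1.85 ± 0.08 and 2.06 ± 0.08 (edgeR adjusted p = 1.68e-08, 8.92e-10 and 3.13e-10). Among the 6 fibroblast markers tested, 1 was called higher in dsHMGB1 (*Dcn*, 1.28 ± 0.18), 4 in LPS and 4 in LPS/IFNγ (*Dcn*, *Col1a1*, *Col1a2* and *Col3a1*, from 0.58 ± 0.20 to 1.88 ± 0.18), and their part in the rise of *P4ha1* was not tested. *Adm* (ENSMUSG00000030790, chr7:110627661-110629820, plus strand), which encodes the vasodilator peptide adrenomedullin, was scarce, with 18.2, 10.5 and 7.95 in PBS, 2.19, 6.36 and 7.77 in frHMGB1, 81.8, 59.7 and 51.8 in dsHMGB1, 185, 188 and 187 in LPS and 45.4, 22.2 and 50.3 in LPS/IFNγ. It was highest in LPS and rose by 2.35 ± 0.37, 3.89 ± 0.37 and 1.65 ± 0.39 on the log2 scale (edgeR adjusted p = 0.000208, 1.5e-06 and 0.00241), from 50 raw counts over the PBS group.

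*Vegfa*, the angiogenic growth factor and a textbook HIF-1 target, had normalized counts of 1644, 1455 and 1081 in PBS, 1460.2, 1582 and 1425 in frHMGB1, 769.6, 744 and 757 in dsHMGB1, 669, 626 and 653 in LPS and 452, 414 and 443 in LPS/IFNγ. It stepped down from PBS and frHMGB1 to dsHMGB1, LPS and LPS/IFNγ without overlap, with log2 fold changes of -0.88 ± 0.14, -1.10 ± 0.14 and -1.68 ± 0.14 (edgeR adjusted p = 8.66e-05, 7.27e-06 and 1.17e-07). This order is that of *Hif1a* turned round. *Bnip3*, a mitophagy receptor, was lower in dsHMGB1 (-0.69 ± 0.16, edgeR adjusted p = 0.00296) and LPS (-0.44 ± 0.16, 0.0281) and -0.07 ± 0.16 in LPS/IFNγ (0.715). *Ndrg1*, a stress-responsive gene, had 5326, 5593 and 4912 in PBS, 4207, 3868 and 4287 in frHMGB1, 3014, 2095 and 2653 in dsHMGB1, 6084, 6106 and 6112 in LPS and 9311, 10452 and 9672 in LPS/IFNγ. It fell in dsHMGB1 (-1.03 ± 0.12, edgeR adjusted p = 8.71e-06) and rose in LPS/IFNγ (0.89 ± 0.12, 1.81e-05) and in LPS it was 0.21 ± 0.12 (0.136). Without TMM factors its rise in LPS/IFNγ was not called (0.23, edgeR adjusted p = 0.14).

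**Figure D4:**
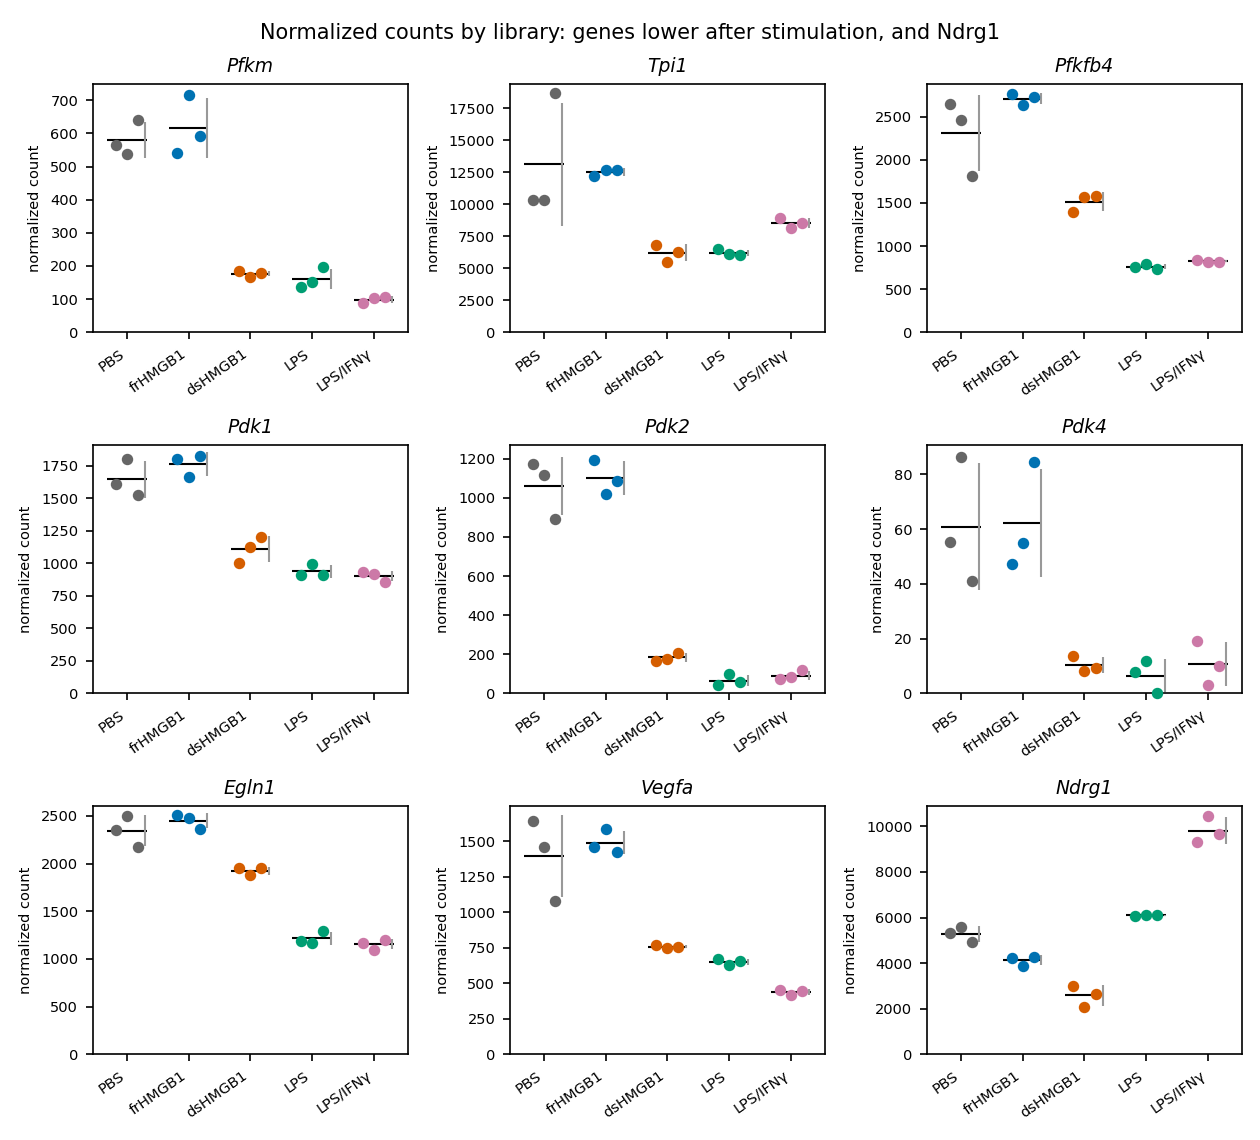
Normalized counts (y axis, linear from 0) by condition (x axis) for 8 genes that were lower after dsHMGB1, LPS and LPS/IFNγ, and for *Ndrg1*; points are the 3 libraries of a condition, black lines their mean and grey bars the SD. In the first 8 panels every library of the last 3 conditions lies below every PBS library, and in the *Ndrg1* panel dsHMGB1 is lowest and LPS/IFNγ highest.

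frHMGB1 against PBS answers whether the fully reduced isoform changed these genes. Apart from *Slc16a1*, whose fall is given above, the log2 fold changes lay between -1.21 for *Adm*, which had 15 raw counts over the frHMGB1 group, and 0.80 for *Pgam1*. For some of the genes that rose in dsHMGB1 the 95% intervals were -0.27 to 1.06 for *Pfkfb3*, -2.23 to -0.19 for *Adm*, -0.38 to 0.27 for *Hk2*, -0.04 to 0.43 for *Pfkp*, -0.21 to 0.11 for *P4ha1* and -0.44 to 0.91 for *Hif1a*, so the changes seen in dsHMGB1 lay outside them. The third PBS library decided this comparison for several genes. Without it, 7 genes were called higher (*Gpi1*, *Tpi1*, *Gapdh*, *Pgk1*, *Pgam1*, *Eno1* and *Pkm*) and 3 lower (*Slc16a1*, *Hk2* and *Ndrg1*), with log2 fold changes from -0.52 for *Slc16a1* to 0.47 for *Pgam1* and 0.47 for *Pgk1*. In that fit 1459 of all 17339 genes tested were higher and 1576 lower. All 7 of the genes called higher have pseudogene copies with a lower share of counts in frHMGB1, as do *Aldoa* and *Ldha*, which were not called (0.11 and 0.21, edgeR adjusted p = 0.204 and 0.0645). The share for *Eno1* was 0.14% in PBS and 0.0199% in frHMGB1, and its log2 fold change then was 0.30.

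Between the isoforms at the same dose, dsHMGB1 against frHMGB1, 11 of the 33 genes were higher and 14 lower in dsHMGB1, beside 27.7% and 23.1% of all genes tested. For protein-coding genes alone these shares were 24.0% and 26.7%. The genes that were higher were *Slc2a1*, *Slc16a1*, *Hk1*, *Hk2*, *Hk3*, *Pfkp*, *Pfkfb3*, *Pdk3*, *Hif1a*, *Adm* and *P4ha1*, with log2 fold changes from 0.29 ± 0.06 for *Hk3* to 3.56 ± 0.48 for *Adm*. *Hk2* differed by 1.46 ± 0.17 (edgeR adjusted p = 4.13e-06), *Pfkp* by 1.88 ± 0.12 (1.86e-08) and *Hif1a* by 1.55 ± 0.34 (0.00166). This comparison does not use the PBS libraries for its means. The largest falls were in *Pdk2* (-2.59 ± 0.24, edgeR adjusted p = 1.58e-06), *Pdk4* (-2.59 ± 0.57, 0.00349) and *Pfkm* (-1.80 ± 0.16, 6.49e-07). *Pgam1* was lower as well (-0.88 ± 0.29, edgeR adjusted p = 0.0157). *Gapdh* is among the 14 lower genes and was called higher with its copies added. Of the rises, those of *Slc16a1*, *Hk1*, *Hk3* and *Pdk3* were not called without TMM factors, and that of *Hk3* turned to -0.09. Without the third PBS library *Pgk1*, *Eno1* and *Ldha* were called lower as well.

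dsHMGB1 against LPS sets apart 2 stimuli known to act through TLR4. Of the 33 genes 3 were higher and 11 lower in dsHMGB1, beside 15.8% and 10.6% of all genes tested, and the median log2 fold change was -0.25 where that of all genes was 0.07. Among protein-coding genes alone, the shares were 12.3% and 12.6% and the median was 0.00. The 11 lower genes were *Slc16a1*, *Hk1*, *Hk2*, *Hk3*, *Pfkp*, *Pfkfb3*, *Gapdh*, *Pgk1*, *Adm*, *P4ha1* and *Ndrg1*. With its copies added, *Gapdh* was not called and its direction turned. All 3 hexokinases were lower in dsHMGB1, with log2 fold changes of -0.75 ± 0.14 for *Hk1* (edgeR adjusted p = 0.000736), -0.99 ± 0.17 for *Hk2* (0.000365) and -0.92 ± 0.06 for *Hk3* (2.02e-06). Among the regulators of phosphofructokinase, *Pfkfb3* differed by -1.31 ± 0.34 (edgeR adjusted p = 0.00917), and *Adm* by -1.54 ± 0.32 (0.00481). The 3 genes higher in dsHMGB1 were *Pfkfb4* (0.99 ± 0.13, edgeR adjusted p = 6.75e-05), *Pdk2* (1.51 ± 0.26, 0.000863) and *Egln1* (0.67 ± 0.08, 9.83e-05), each of which had fallen further in LPS. For *Hif1a* the difference was -0.54 ± 0.34 with a 95% interval of -1.21 to 0.13 and was not called (0.264), although the libraries of dsHMGB1 and LPS did not overlap. The model pools the spread over all groups, and without the third PBS library, which is in neither group, the same difference was called (-0.57, edgeR adjusted p = 2.5e-05), and so were *Pfkl*, *Aldoa*, *Pdk1* and *Vegfa* as higher and *Pgam1*, *Ldha* and *Egln2* as lower. The falls of *Pgk1* and *P4ha1* were not called without TMM factors, where all fold changes of this comparison shift by 0.281. The counts then were 11 higher and 9 lower, beside 4661 higher and 885 lower of all 16919 genes tested.

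LPS/IFNγ against LPS asks what was added by IFNγ, within the limit on the LPS dose given above. Here 8 genes were higher and 6 lower in LPS/IFNγ, beside 16.3% and 9.36% of all genes tested and 12.5% and 11.2% of protein-coding genes. The other scalings moved all fold changes of this comparison by -0.036 to -0.006. The 8 higher genes were *Slc2a1*, *Slc16a1*, *Hk2*, *Hk3*, *Pfkp*, *Pdk3*, *Hif1a* and *Ndrg1*. The largest differences among them were in *Pdk3* (1.97 ± 0.12, edgeR adjusted p = 1.35e-07), *Slc16a1* (1.73 ± 0.11, 2.17e-07), *Hk2* (1.35 ± 0.17, 2.76e-05) and *Hif1a* (1.29 ± 0.34, 0.0108). The 6 lower genes were *Pfkm*, *Pfkfb3*, *Gapdh*, *Pgk1*, *Vegfa* and *Adm*. *Pfkfb3* (-1.45 ± 0.34, edgeR adjusted p = 0.0051) and *Adm* (-2.24 ± 0.33, 0.000419) were thus lower where *Hif1a* was higher, and *Adm* had the largest difference in either direction. The call of *Slc2a1* was lost with RLE and upper-quartile scaling and that of *Pgk1* with upper-quartile scaling. Without the third PBS library, *Slc16a3*, *Tpi1*, *Pkm* and *P4ha1* were also called higher and *Gpi1*, *Aldoa*, *Eno1* and *Egln2* lower. *Gapdh* was called lower (-0.58 ± 0.14, edgeR adjusted p = 0.00588) and turned to 0.94 with its copies added.

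**Figure D5:**
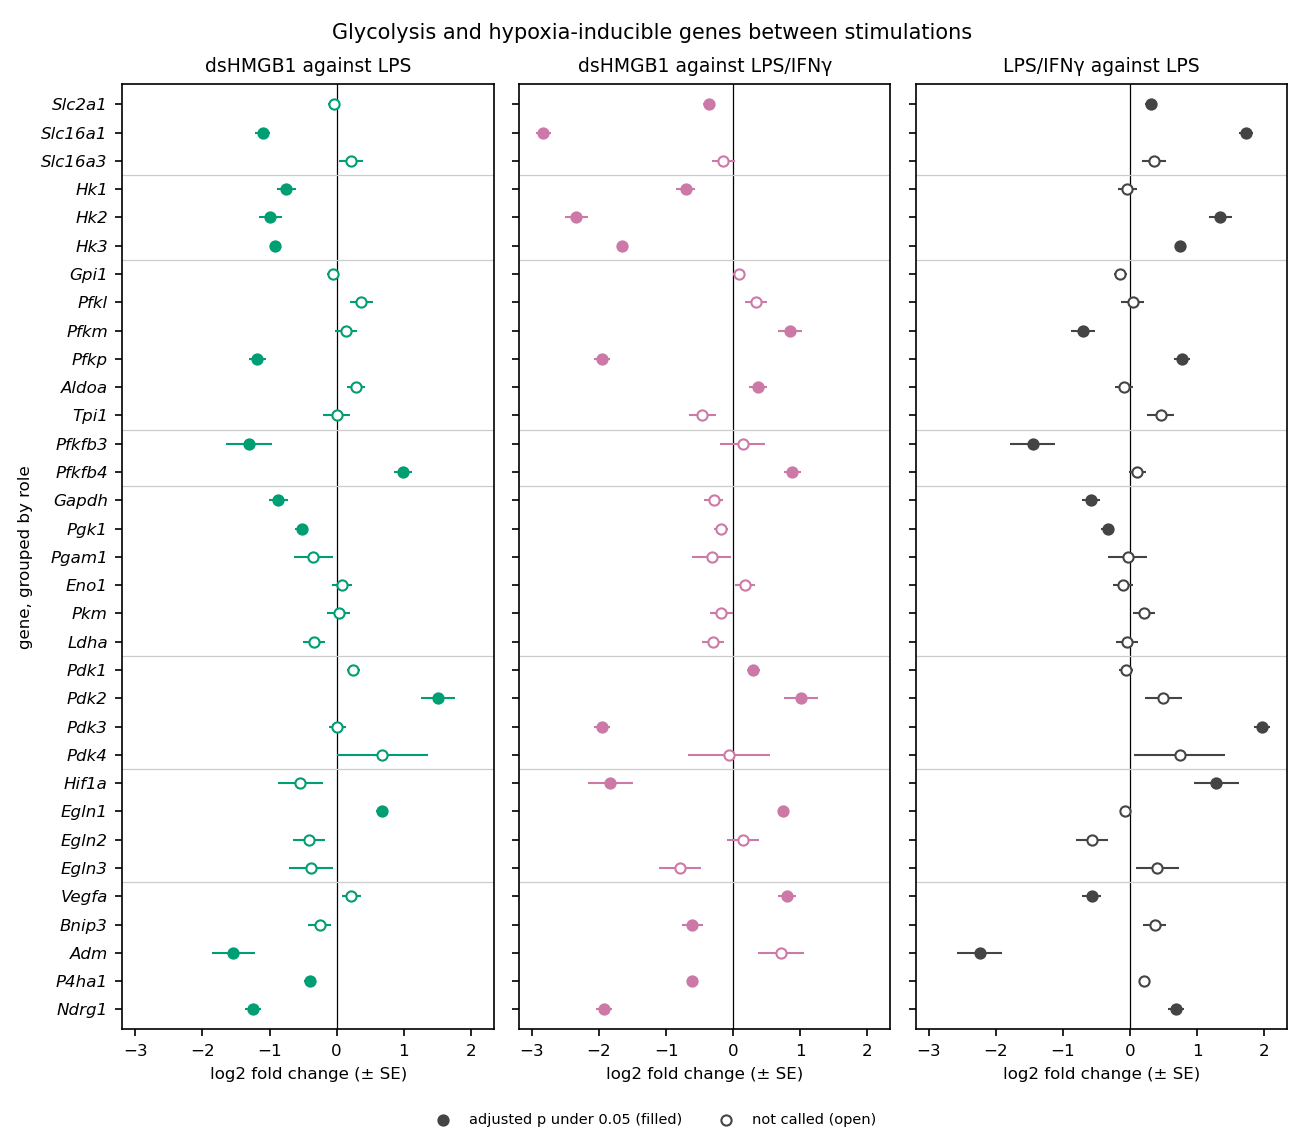
Log2 fold change (x axis, ± SE) of the 33 genes (y axis, grouped by role) in dsHMGB1 against LPS, dsHMGB1 against LPS/IFNγ and LPS/IFNγ against LPS, 3 libraries per group, with filled points for an edgeR adjusted p under 0.05. Hexokinases and *Pfkp* lie to the left of 0 in the first and second panels, and *Pdk3*, *Slc16a1*, *Hk2* and *Hif1a* lie furthest to the right in the third.

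dsHMGB1 against LPS/IFNγ, the classical M1 stimulation, showed 7 genes higher and 11 lower in dsHMGB1, beside 16.5% and 16.7% of all genes tested. Of protein-coding genes alone, 19.3% were higher and 19.1% lower. The lower genes were *Slc2a1*, *Slc16a1*, *Hk1*, *Hk2*, *Hk3*, *Pfkp*, *Pdk3*, *Hif1a*, *Bnip3*, *P4ha1* and *Ndrg1*. The differences were -2.83 ± 0.11 for *Slc16a1* (edgeR adjusted p = 1.86e-09), -2.34 ± 0.17 for *Hk2* (1.3e-07), -1.96 ± 0.12 for *Pfkp* (3.71e-08), -1.96 ± 0.12 for *Pdk3* (6.34e-08), -1.92 ± 0.12 for *Ndrg1* (6.12e-08) and -1.83 ± 0.34 for *Hif1a* (0.000835). The higher genes were *Pfkm*, *Aldoa*, *Pfkfb4*, *Pdk1*, *Pdk2*, *Egln1* and *Vegfa*, from 0.30 ± 0.10 for *Pdk1* to 1.01 ± 0.25 for *Pdk2*. *Pfkfb3* and *Adm*, which rose in both against PBS, were not called, with differences of 0.14 ± 0.34 and a 95% interval of -0.53 to 0.80 for *Pfkfb3* (edgeR adjusted p = 0.805) and 0.71 ± 0.34 for *Adm* (0.153). Without TMM factors *Slc2a1*, *Hk1* and *Bnip3* were not called, nor was *Slc2a1* with upper-quartile scaling or *Aldoa* with RLE. Without the third PBS library *Pfkfb3* was called higher (0.16, edgeR adjusted p = 0.0336), as were *Pfkl* and *Eno1*, and *Tpi1*, *Gapdh*, *Pgk1*, *Pgam1*, *Pkm*, *Ldha* and *Egln3* were called lower.

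The other genes of these pathways were taken from lists by function, and their counts against PBS are given for dsHMGB1, LPS and LPS/IFNγ in that order. They stand beside 23.3%, 26.7% and 29.0% of all genes tested that were higher and 24.2%, 36.2% and 31.2% that were lower. The median log2 fold changes of all genes were -0.11, -0.27 and -0.15. In frHMGB1 1.31% of all genes tested were higher and 5.69% lower. Of 21 other genes of glycolysis and glucose transport, 3 were higher and 8 lower, 3 and 11, and 3 and 13, with median log2 fold changes of -0.45, -0.49 and -0.54. The 3 that were higher were *Slc2a6*, *Tigar* and *Mpc1* each time. *Slc2a6*, which encodes the transporter GLUT6, had the largest change of any glycolysis gene examined. Its normalized counts were 784, 753 and 684 in PBS, 1421, 1354 and 1185 in frHMGB1, 54112, 49732 and 50369 in dsHMGB1, 86790.3, 90848 and 95663 in LPS and 57875, 54931 and 59092 in LPS/IFNγ, with log2 fold changes of 6.11 ± 0.09, 6.94 ± 0.09 and 6.27 ± 0.09 (edgeR adjusted p = 1.5e-13, 4.71e-14 and 7.91e-14). It was also the only 1 of the 21 called in frHMGB1 (0.83 ± 0.09, edgeR adjusted p = 7.91e-05). Its level per kilobase rose from 3.97 in PBS to 488 in LPS, above the 29 of *Slc2a1*. *Slc2a3*, which encodes the transporter GLUT3, fell (-1.64 ± 0.28, -1.90 ± 0.30 and -1.91 ± 0.29, edgeR adjusted p = 0.000276, 6.82e-05 and 5.34e-05), as did *Pfkfb2* of the PFKFB family (-1.57 ± 0.42, -2.15 ± 0.43 and -2.06 ± 0.43, 0.00657, 0.000718 and 0.000846). *Pgam2*, the muscle mutase, was not called and had a library at 0.

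In the pentose phosphate pathway, which branches from glucose-6-phosphate and supplies NADPH, 2 of 9 genes were higher and 2 lower in dsHMGB1, 1 and 5 in LPS, and 2 and 7 in LPS/IFNγ, with medians of -0.28, -0.61 and -0.92. *Shpk*, a sedoheptulose kinase known to fall when macrophages meet LPS, had log2 fold changes of -1.41 ± 0.26, -2.32 ± 0.29 and -3.83 ± 0.33 (edgeR adjusted p = 0.000566, 8.22e-06 and 1.24e-07). *H6pd*, the glucose-6-phosphate dehydrogenase of the endoplasmic reticulum, fell in LPS (-0.99 ± 0.28, edgeR adjusted p = 0.00572) and LPS/IFNγ (-2.63 ± 0.28, 2.39e-06). *Rpe*, an epimerase of the non-oxidative branch, rose (1.17 ± 0.13, 1.76 ± 0.13 and 2.01 ± 0.13, edgeR adjusted p = 3.97e-06, 4.34e-08 and 1.06e-08). The pyruvate dehydrogenase complex and its phosphatases changed least, with 1 of 8 genes higher and 0 lower in dsHMGB1, 1 and 1 in LPS, and 1 and 2 in LPS/IFNγ. *Dld*, the E3 subunit, was the gene that rose (0.95 ± 0.06, 1.22 ± 0.06 and 1.02 ± 0.06, edgeR adjusted p = 1.8e-07, 9.18e-09 and 5.01e-08). The phosphatase gene *Pdp2* fell in LPS (-0.60 ± 0.18, edgeR adjusted p = 0.00673) and LPS/IFNγ (-0.46 ± 0.18, 0.0287), and *Pdpr*, a regulator of the phosphatase, in LPS/IFNγ (-1.80 ± 0.67, 0.0411).

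Of 10 other HIF subunits and regulators, 4, 3 and 5 were higher and 0 lower by edgeR in the same order, where 4, 4 and 6 had an unadjusted p under 0.05. The largest rises were in *Cited2*, whose product competes with HIF-1 for a coactivator (2.76 ± 0.14, 3.09 ± 0.14 and 2.63 ± 0.14, edgeR adjusted p = 1.58e-09, 3.36e-10 and 1.32e-09), *Cul2*, the scaffold of the VHL ligase (1.60 ± 0.08, 1.91 ± 0.08 and 2.43 ± 0.08, 7e-09, 7.28e-10 and 7.18e-11), and *Siah2*, a ubiquitin ligase for prolyl hydroxylases (1.19 ± 0.11, 1.74 ± 0.11 and 1.87 ± 0.11, 1.17e-06, 1.69e-08 and 7.56e-09). *Epas1*, which encodes HIF-2α, was not called (-0.54 ± 0.28, -0.32 ± 0.28 and -0.17 ± 0.28, edgeR adjusted p = 0.108, 0.311 and 0.602). A second list of 27 hypoxia-inducible genes had 5 higher and 11 lower in dsHMGB1, 8 and 13 in LPS, and 9 and 12 in LPS/IFNγ, and medians of -0.47, -0.59 and -0.66. Among its genes with wide ranges, *Zfp395* (-4.30 ± 0.16, -6.72 ± 0.24 and -5.31 ± 0.17, edgeR adjusted p = 1.98e-10, 8.13e-12 and 2.34e-11) and *Narf* (-1.88 ± 0.19, -3.01 ± 0.20 and -2.67 ± 0.19, 1.05e-06, 9.33e-09 and 2.32e-08) fell. In frHMGB1, 0 genes of the last 4 lists were called in either direction by edgeR, and 0, 0, 1 and 3 of them had an unadjusted p under 0.05.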

How the data were processed

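Per the labels and the methods of the study, stranded mRNA libraries were sequenced in paired-end mode, base calls were made with CASAVA and the authors aligned the reads to GRCm38 with STAR. The deposited table holds raw counts of reads per gene for 51763 Ensembl identifiers, not normalized or filtered. Which program and annotation did the counting is not given in the sources used here. The authors' own comparison used DESeq2 with a log2 fold change cut-off of 2 and no p, because its replicates are technical.

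Positions and gene types were read from GENCODE M21, where 51661 identifiers were found. Genes were kept by filterByExpr (10 counts in the libraries of a group, 15 in all), and 16919 passed. They were tested with edgeR 4.0.16 (quasi-likelihood F test) after TMM, all 15 libraries in one fit, no covariates and Benjamini-Hochberg adjustment over all genes tested, in R 4.3.3. Normalized counts, log2 fold changes and SE came from DESeq2 1.42.0 with size factors from TMM, and 95% intervals are the estimate ± 1.96 SE. Intervals and tests cover the spread between these libraries only. The steps were tested on simulated data. Pseudogene copies are processed pseudogenes that minimap2 2.31 aligned to a transcript of the gene with at least 80% identity over at least 50% of their length. Promoter windows and their sequences came from RefSeq.

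The genes and the pathway lists were chosen with earlier results of these data known. Values by library are given for *Slc2a1*, *Hif1a* and, in each role, the 2 genes with the largest range of group means. In each pathway list the 3 genes with the largest range are named, with *Slc2a3*, *Shpk* and *Epas1*, except a gene that is not reported here. *Tpi1*, *Pdk3*, *Vegfa* and *Ndrg1*, and the PBS libraries of *Slc16a3*, *Ldha* and *Egln2*, were given by library, and *Tigar* and *Mpc1* were named, after their values were seen. *Hkdc1*, *Fbp1*, *Hif3a* and *Car12* were among the listed genes that did not enter the tests. A median over the second hypoxia list includes *Ppp1r3c*, which had 0 counts in all libraries of dsHMGB1, LPS and LPS/IFNγ, and no median changed with it at a bound of 3 counts over the group. Scaling by library size without TMM factors was added after seeing the data.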

Additional observations from a re-analysis of the deposited data

How the results depend on the processing

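For the 16 genes chosen for values by library, 3197 values under an alternative were computed over 128 results, of which 3130 kept their direction and side of the threshold, 24 became called, 35 lost their call and 8 turned. With library-size scaling, the turned values were 0.24 for *Slc2a1* in dsHMGB1 against LPS, -0.09 for *Hk3* in dsHMGB1 against frHMGB1 and -0.51 for *Gapdh* in LPS/IFNγ against PBS. With pseudogene copies added, *Gapdh* turned to -1.07 in frHMGB1 against PBS, -0.80 in LPS against PBS, 0.60 in dsHMGB1 against frHMGB1, 0.33 in dsHMGB1 against LPS and 0.94 in LPS/IFNγ against LPS. The turn with scaling follows from its construction, since all genes of a comparison shift together, and the cause of the share of counts in copies was not tested.

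Counts of called genes that moved by over 1.5 times were as follows. In frHMGB1 against PBS, 1 gene was higher with DESeq2 and with library-size scaling, and 2 were lower with DESeq2, upper-quartile scaling or copies added and 0 with library-size scaling or with the 2 groups fitted alone. Of all 16919 genes, DESeq2 called 502 higher and 1258 lower there, library-size scaling 184 and 947, and upper-quartile scaling 1004 lower. Lower were 883 of 16809 with copies added and 182 of 14887 with the groups fitted alone. With library-size scaling, 20 were lower in dsHMGB1 and 19 in LPS/IFNγ against PBS, 7 were higher in dsHMGB1 against frHMGB1, 11 were higher in dsHMGB1 against LPS and 11 in dsHMGB1 against LPS/IFNγ. Of all 16919 genes, 6689, 8782, 3337, 4661 and 4806 were called in these directions, in the same order. With the 2 groups fitted alone, the lower counts against PBS were 7 for dsHMGB1, 8 for LPS and 7 for LPS/IFNγ. Of all genes tested, 2254 of 15883, 3685 of 15049 and 3555 of 15863 were lower there. In dsHMGB1 against LPS 5 were higher, beside 3761 of 14872 genes. In dsHMGB1 against LPS/IFNγ 18 were lower, beside 4284 of 15494. In LPS/IFNγ against LPS 13 were higher and 10 lower, beside 4564 and 4435 of 14738. Beside the calls lost that the report names, this fit ended those of *Hk1*, *Pfkfb4*, *Pdk3*, *Egln1* and *Bnip3* in dsHMGB1, of *Pfkl* and *Bnip3* in LPS and of *Pfkl* and *Pgk1* in LPS/IFNγ against PBS. RLE normalization, no filter, the filter of 1 CPM in 3 libraries and protein-coding genes alone moved no count of the 33 genes by that much.

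Leaving out each library in turn gave 0 to 7 higher and 0 to 3 lower genes in frHMGB1, 9 to 12 and 11 to 13 in dsHMGB1, 12 to 15 and 10 to 13 in LPS, and 12 to 16 and 10 to 14 in LPS/IFNγ against PBS. The ranges were 10 to 11 and 12 to 17 in dsHMGB1 against frHMGB1, 3 to 7 and 11 to 15 in dsHMGB1 against LPS, 5 to 10 and 10 to 18 in dsHMGB1 against LPS/IFNγ, and 6 to 12 and 5 to 10 in LPS/IFNγ against LPS. The third PBS library set the upper ends named in the report. Without it, dsHMGB1 against LPS had 4433 higher and 4032 lower of all 17339 genes. In the same fit dsHMGB1 against LPS/IFNγ had 4840 and 4398, and LPS/IFNγ against LPS 4353 and 4213. Between samples with the same replicate number, r of deviations was -0.379, 0.371 and -0.13 for replicates 1, 2 and 3 in dsHMGB1 against PBS. In the other comparisons it was -0.0585 to 0.0743. These values differ in sign and do not settle whether the numbers pair the samples, and the main fit does not use the numbers. With a replicate block the counts were those of the unblocked fit, except 6 higher and 12 lower in dsHMGB1 against LPS/IFNγ.

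Over all genes tested, frHMGB1 against PBS had 222 higher and 963 lower, 7 and 182 with the groups fitted alone, and 41 and 29 with protein-coding genes alone. Without the third PBS library, 1459 of 17339 genes were higher and 1576 lower in that comparison. With library-size scaling, 2615 were higher and 6689 lower in dsHMGB1, 2653 and 9458 in LPS, and 2976 and 8782 in LPS/IFNγ against PBS, where TMM gave 3936 and 4092, 4515 and 6121, and 4914 and 5284. Depth limits *Adm*, *Pdk4* and *Egln3*, the scarcest of the 33 genes.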
